A study of Mus musculus with 16 samples.

Results

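Secretoglobins and the genes that mark the club cell were examined in the lungs of adult mice that had been carried by mothers breathing smoke. The genes were Scgb1a1, Scgb3a1, Scgb3a2, Cyp2f2, Gsta3, Cckar and Cbr2, taken with every probe set that the platform annotation assigns to exactly 1 of these symbols or a synonym. That gave 8 probe sets of 7 genes, 2 of them for Gsta3, among 45037 probe sets of 18193 genes. No probe set of these genes was picked by its value, but the genes were listed with earlier results of these data known. The shares of all probe sets given beside the 8 are thus a description and not a test. The probe sets are 1452543_a_at (Scgb1a1), 1419699_at (Scgb3a1), 1425218_a_at (Scgb3a2), 1448792_a_at (Cyp2f2), 1423436_at and 1423437_at (Gsta3), 1421195_at (Cckar) and 1418509_at (Cbr2). All 8 were tested, with no filter on low values.

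The lungs came from 16 Balb/c mice, an inbred strain widely used in models of allergic asthma, and each left lung was hybridized to 1 Affymetrix 430 2.0 array. Air females and air males had developed in mothers kept in filtered air, and SHS females and SHS males in mothers exposed to second-hand smoke, given as sidestream smoke with 10 mg/m3 of suspended particles for 5 h a day on 7 days a week. There were 4 mice in each of the 4 groups, all killed at 23 weeks of age. Every mouse, controls included, had been sensitized to ovalbumin (OVA), an egg protein used as an allergen, by injection at 19 and 21 weeks and challenged with OVA aerosol in weeks 22 and 23, so each comparison was made within allergic lungs. The sources used here do not say which mice shared a mother or litter, and p-values measure only the spread between these mice.

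Club cells are the secretory cells that line the small airways of the mouse. They release secretoglobins, small secreted proteins held together as dimers, of which Scgb1a1 (club cell secretory protein) is the classical marker and Scgb3a1 and Scgb3a2 are further airway members. The same cells are a main site of drug metabolism in the lung and carry the cytochrome P450 Cyp2f2, which activates naphthalene, the carbonyl reductase Cbr2 and the glutathione transferase Gsta3. Cckar encodes a receptor for the peptide cholecystokinin. A whole lung holds many other cell types, and in such tissue fewer club cells and less RNA per club cell cannot be told apart.

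Arrays of the same sex correlated at 0.990 to 0.998 across probe sets and arrays of different sexes at 0.959 to 0.974, and females were never set against males in level. SHS female replicate 4 stood apart: it correlated on average at 0.992 with the other SHS females but at 0.995 with those kept in air, and it was the single array closer to the other exposure. Leaving out SHS female replicate 4 and SHS male replicate 4 is given beside the results. These arrays were singled out in earlier work on the same values, and taking out the arrays nearest to air makes calls likelier, so results without them describe the remaining arrays and support nothing by themselves.

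Upstream sequences of some of these genes are shown, whether or not the gene was lower after SHS. Windows from RefSeq promoters (GRCm38.p6), taken by symbol, are shown for 4 of the 7 genes, and none is shown for Scgb1a1, Scgb3a2 or Cckar. Each line below gives 230 bases, from 250 to 21 before the annotated start, 5′ to 3′ on the gene's strand. Capitals mark matches on either strand to any of 5 motifs of factors or elements known in airway and stress-response genes: FOXA as TGTTTNC, NKX2-1 as CTCAAG, C/EBP as TTNNGNAA, the TATA box as TATAAA and the antioxidant response element as TGACNNNGC. No marked matches overlapped.
Scgb3a1: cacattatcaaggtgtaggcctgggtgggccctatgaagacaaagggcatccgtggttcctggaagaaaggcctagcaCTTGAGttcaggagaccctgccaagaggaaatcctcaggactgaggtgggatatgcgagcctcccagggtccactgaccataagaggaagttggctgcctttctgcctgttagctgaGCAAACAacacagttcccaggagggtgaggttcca
Cyp2f2: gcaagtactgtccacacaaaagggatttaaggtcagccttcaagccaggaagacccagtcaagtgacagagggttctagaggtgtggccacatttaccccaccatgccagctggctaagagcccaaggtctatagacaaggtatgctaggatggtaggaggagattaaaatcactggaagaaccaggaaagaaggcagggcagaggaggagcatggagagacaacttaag
Gsta3: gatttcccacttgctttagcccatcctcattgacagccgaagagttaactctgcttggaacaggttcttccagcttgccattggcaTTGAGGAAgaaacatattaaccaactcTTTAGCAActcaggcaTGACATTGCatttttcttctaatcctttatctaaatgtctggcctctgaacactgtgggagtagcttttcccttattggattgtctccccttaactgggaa
Cbr2: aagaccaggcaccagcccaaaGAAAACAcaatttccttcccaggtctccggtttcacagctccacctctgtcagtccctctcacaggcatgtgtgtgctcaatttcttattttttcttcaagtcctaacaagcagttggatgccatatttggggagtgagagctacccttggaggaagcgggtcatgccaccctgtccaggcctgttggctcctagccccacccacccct
The windows are chr11:49663345-49663574 on the plus strand, chr7:27119705-27119934 on the plus strand, chr1:21240335-21240564 on the plus strand and chr11:120732042-120732271 on the minus strand. The Scgb3a1 window held 1 FOXA and 1 NKX2-1 match, the Gsta3 window 2 C/EBP matches and 1 antioxidant response element match, the Cbr2 window 1 FOXA match and the Cyp2f2 window none. Among 32851 promoters cut to the same window, 16.5% held a FOXA match, 12.5% an NKX2-1 match, 35.2% a C/EBP match, 11.8% a TATA box and 9.19% an antioxidant response element. No motif was shared by all 4 windows. They include Scgb3a1, which was not called, and lack Scgb3a2 and Cckar, so they do not cover the genes that were lower together.

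Of the 8 probe sets, the one for Scgb3a2 was lower after SHS in both sexes, and it was the only one called in either sex alone. In the effect averaged over the sexes 6 of 8 were lower, those of Scgb3a2, Cyp2f2, Gsta3 (both), Cckar and Cbr2, and none was higher. Over all probe sets, a call in the lower direction (limma, adjusted p under 0.05) was made for 0.517% in females, 2.11% in males and 3.67% in the averaged effect, and a call in the higher direction for 2.36%, 3.07% and 6.65%. At an unadjusted p under 0.05, 7 of 8 passed in females and 5 of 8 in males, beside 16% and 20.2% of all probe sets, and the counts at this threshold given for other genes are to be read against these shares. All 8 log2 differences in females and 7 of 8 in males were below 0, against 52.8% and 50.6% of all probe sets. The median log2 difference of the 8 was -0.44 in females and -0.29 in males, beside medians of -0.01 and 0.00 over all probe sets. Without the SHS arrays numbered 4, the same 6 probe sets were called lower in females, in males and in the averaged effect, where 2.94%, 3.21% and 7.35% of all probe sets were called lower.

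**Figure D1:**
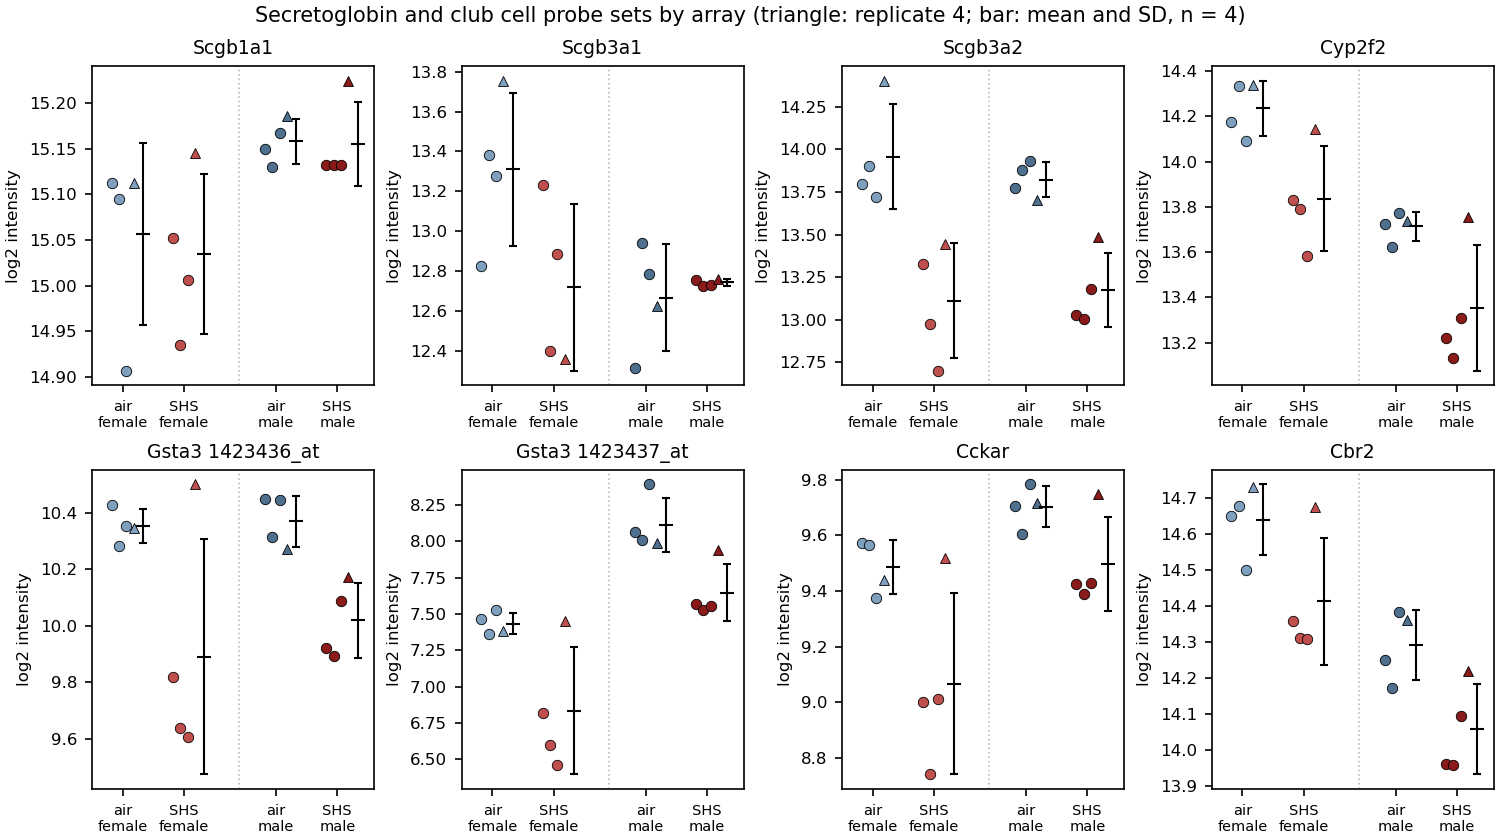
Deposited log2 intensity (y axis, a different scale in each panel) of each secretoglobin or club cell probe set on each array (points), in air and SHS females and males (x axis), with the mean and SD of each group of 4 beside the points. Scgb3a2 had all SHS points below all air points in both sexes, and in most other panels the triangle of replicate 4 lay nearest to air among the SHS points.

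Scgb3a2 (secretoglobin 3A2), an airway secretoglobin, showed the widest separation. In air females it had log2 intensities of 13.80, 13.90, 13.72 and 14.40 in replicates 1 to 4, and in SHS females of 13.33, 12.98, 12.70 and 13.44. In air males the values were 13.77, 13.88, 13.93 and 13.70, and in SHS males 13.03, 13.01, 13.18 and 13.48. Every SHS value lay below every air value of its sex, as was the case for 2.64% of all probe sets in females and 7.51% in males. Scgb3a2 was 1.80-fold lower in SHS females, a change of -0.84 ± 0.16 in log2 units (SE, 4 mice against 4, limma adjusted p = 0.00692), and 1.57-fold lower in SHS males, -0.65 ± 0.16 (adjusted p = 0.0251). Averaged over the sexes it was 1.68-fold lower, -0.75 ± 0.11 (adjusted p = 0.000345). The effects in the sexes differed by -0.20 (females minus males, 95% interval -0.67 to 0.28, adjusted p = 0.852).

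The female call for Scgb3a2 was kept with each array left out in turn, with adjusted p from 0.0014 to 0.0286, but missed the threshold when the 8 female arrays were fitted alone (adjusted p = 0.0511). The male call was kept in 10 of 16 such fits. It was lost without air male replicate 1, 2 or 3 or SHS male replicate 1, 2 or 3, with a highest adjusted p of 0.0785.

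Scgb1a1 had no call and lay closest of the 8 to the top of the array range. Its values in air females were 15.11, 15.09, 14.91 and 15.11 and in SHS females 15.05, 14.94, 15.01 and 15.15. In air males they were 15.15, 15.13, 15.17 and 15.19 and in SHS males 15.13, 15.13, 15.13 and 15.22. The groups overlapped in both sexes, with log2 differences of -0.02 in females (95% interval -0.16 to 0.12, adjusted p = 0.919) and 0.00 in males (-0.14 to 0.14, adjusted p = 0.989). The probe set was the brightest on all 8 male arrays and ranked no lower than 4 on any array, at a mean of 0.03 log2 units under the highest value. SHS male replicates 1, 2 and 3 carried 1 identical value to the last deposited digit, as did air female replicates 1 and 4. Its pooled SD within groups was 0.07, the same as the median of 0.07 over the 60 probe sets within 1 log2 unit of the ceiling, beside 0.09 over 617 probe sets with means from 12 to 13. Whether the top of the range hid or reduced a difference in Scgb1a1 was not tested, and its interval holds only for values as deposited.

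**Figure D2:**
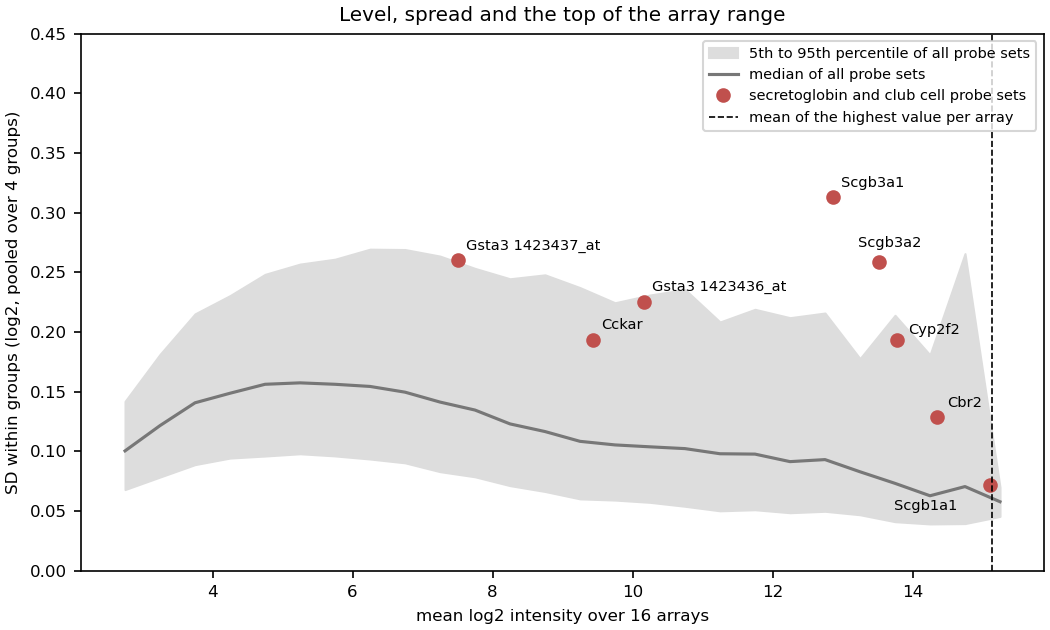
Pooled within-group SD (y axis, log2) against mean log2 intensity over 16 arrays (x axis) for the 8 probe sets (points), over the median (line) and the 5th to 95th percentile (band) of all probe sets. Scgb1a1 sat at the mean highest value per array (dashed line, 15.14) with an SD of 0.07, while Scgb3a1, at a mean of 12.86, had the largest SD of the 8, 0.31.

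Scgb3a1 differed most from mouse to mouse and did not follow the other members. Its values were 12.83, 13.38, 13.28 and 13.75 in air females and 13.23, 12.40, 12.89 and 12.36 in SHS females. They were 12.31, 12.94, 12.78 and 12.63 in air males and 12.76, 12.73, 12.73 and 12.76 in SHS males. The groups overlapped in both sexes. SHS male values had an SD of 0.02 while those of air males had an SD of 0.27, and replicate 4, nearest to air for most members, was the lowest SHS female. The log2 difference was -0.59 ± 0.19 in females (adjusted p = 0.109) and 0.08 ± 0.19 in males (adjusted p = 0.87). The difference between these effects was -0.67 (95% interval -1.23 to -0.10), which had an unadjusted p of 0.023 in limma but an adjusted p of 0.548. The female difference was called without air female replicate 1 (adjusted p = 0.0376) or without SHS female replicate 1 (adjusted p = 0.0448), and not in the fit without the SHS arrays numbered 4 (-0.47, adjusted p = 0.176).

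In addition, 3 other secretoglobin probe sets carried a single symbol, those of Scgb1b2, Scgb1b27 and Scgb2b27, with means over 16 arrays of 4.04, 6.48 and 3.29. None was called by limma in females or in males, with 1 and 0 at an unadjusted p under 0.05. The 1 was Scgb2b27 in females (-0.27, adjusted p = 0.0638), whose mean of 3.29 lay near the lowest deposited value, 2.58. Their log2 differences ran from -0.27 to 0.07 in females and from -0.09 to -0.02 in males.

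Among the enzymes, Cyp2f2, the naphthalene-activating cytochrome P450 of club cells, had values of 14.17, 14.34, 14.09 and 14.34 in air females and 13.83, 13.79, 13.58 and 14.14 in SHS females. In air males they were 13.72, 13.62, 13.77 and 13.74 and in SHS males 13.22, 13.13, 13.31 and 13.76. In each sex 3 SHS arrays lay below all air arrays and replicate 4 lay within the air range. The log2 difference was -0.40 ± 0.12 in females (adjusted p = 0.0974) and -0.36 ± 0.12 in males (adjusted p = 0.104), neither called, and -0.38 ± 0.09 averaged over the sexes, 1.30-fold lower (adjusted p = 0.00941). The averaged call was kept with each array left out in turn (highest adjusted p = 0.024). Without the SHS arrays numbered 4 the differences were -0.50 in females (adjusted p = 0.0014) and -0.49 in males (adjusted p = 0.00229).

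Gsta3, a glutathione transferase of the alpha class, was measured by 2 probe sets that moved alike. The first, 1423436_at, had 10.43, 10.28, 10.35 and 10.35 in air females and 9.82, 9.64, 9.61 and 10.50 in SHS females. In males it had 10.45, 10.32, 10.45 and 10.27 after air and 9.92, 9.89, 10.09 and 10.17 after SHS. SHS female replicate 4 was above every air female, whereas all SHS males lay below all air males. The second, 1423437_at, ran from 7.36 to 7.52 in air females, was 6.82, 6.60, 6.46 and 7.45 in SHS females, and was also lower in every SHS male (7.53 to 7.94) than in every air male (7.99 to 8.39). Averaged over the sexes the log2 differences were -0.41 ± 0.10 (adjusted p = 0.0136) and -0.53 ± 0.11 (adjusted p = 0.00535), and both were called with each array left out in turn. Within a sex neither was called, with -0.46 and -0.60 in females (adjusted p = 0.0914 and 0.0517) and -0.35 and -0.47 in males (adjusted p = 0.166 and 0.103). Without SHS female replicate 4 the female differences were -0.66 and -0.81 (adjusted p = 0.00012 and 0.000404).

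Cbr2, a carbonyl reductase, was the other member near the ceiling, at a mean of 0.79 log2 units under the highest value. Its values were 14.65, 14.68, 14.50 and 14.73 in air females and 14.36, 14.31, 14.31 and 14.68 in SHS females, and 14.25, 14.17, 14.38 and 14.36 in air males and 13.96, 13.96, 14.09 and 14.22 in SHS males. SHS replicates 1 to 3 lay below all air arrays of their sex, and replicate 4 did not. The log2 difference was -0.23 ± 0.09 in females (adjusted p = 0.214) and -0.23 ± 0.09 in males (adjusted p = 0.152), and -0.23 ± 0.06 averaged over the sexes (adjusted p = 0.0283). The averaged call was kept in 7 of 16 fits with an array left out, with a highest adjusted p of 0.0637 without SHS male replicate 1.

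Cckar, the cholecystokinin A receptor gene, had 9.57, 9.56, 9.37 and 9.44 in air females and 8.999, 8.74, 9.01 and 9.52 in SHS females. In males it had 9.71, 9.61, 9.78 and 9.72 after air and 9.42, 9.39, 9.43 and 9.75 after SHS. Again 3 SHS arrays in each sex lay below all air arrays, and replicate 4 lay among them. The log2 difference was -0.42 ± 0.12 in females (adjusted p = 0.0793), -0.20 ± 0.12 in males (adjusted p = 0.382) and -0.31 ± 0.09 averaged over the sexes (adjusted p = 0.0289). The averaged call was kept in 7 of 16 fits with an array left out, and the highest adjusted p was 0.0619, without SHS male replicate 2. The genes of its ligand, Cck, and of the second cholecystokinin receptor, Cckbr, had log2 differences of -0.03 and -0.14 in females and 0.13 and 0.07 in males, and neither was called. Their means over 16 arrays were 3.83 and 6.31, that of Cck near the lowest deposited value, 2.58.

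**Figure D3:**
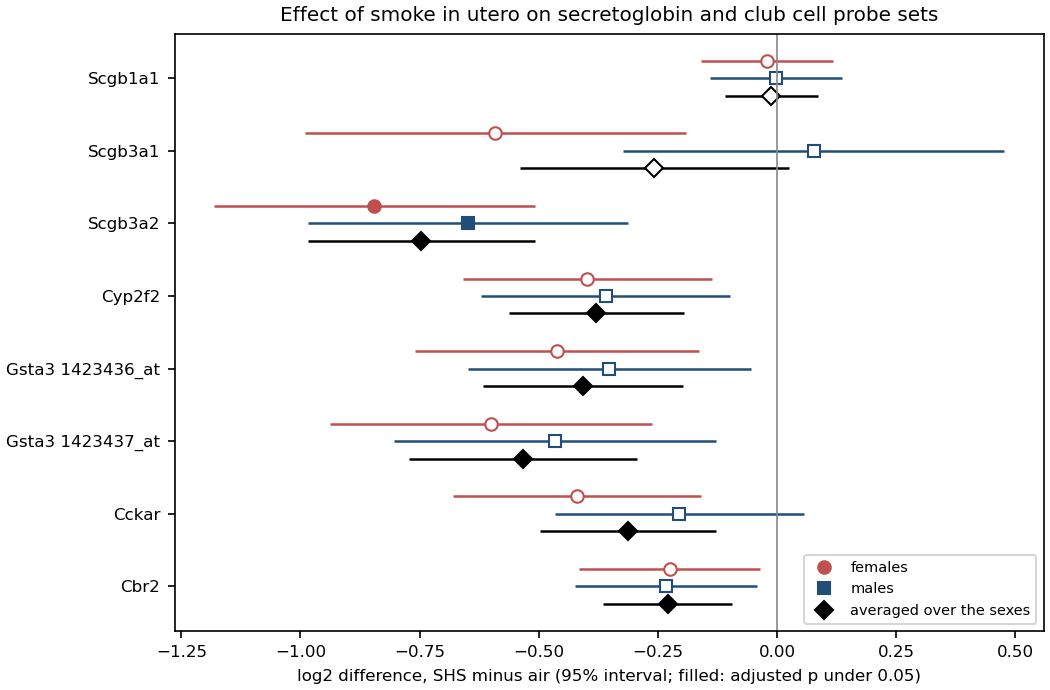
Log2 difference, SHS minus air (x axis), with its 95% interval for each of the 8 probe sets (rows), for each sex and for the mean of both sexes; filled symbols passed an adjusted p of 0.05. Scgb3a2 is filled in both sexes (-0.84 and -0.65), and 6 probe sets are filled in the averaged effect.

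A difference between the sexes in the response to SHS was not called for any member: limma called none of the 8 and none of 45037 probe sets for the difference of the effects, with 1 of 8 and 8.24% at an unadjusted p under 0.05. Apart from Scgb3a1, the differences of the effects lay between -0.22 (Cckar) and 0.01 (Cbr2). Among their 95% intervals the lowest end was -0.67 (Scgb3a2) and the highest 0.34 (second Gsta3 probe set). With 4 mice in a group, each interval thus leaves room for a difference between the sexes.

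The 4 SHS mice of a sex were not alike. For 6 probe sets, those of Scgb3a2, Cyp2f2, Gsta3, Cckar and Cbr2, a set named after the values were seen, replicate 4 was the SHS array nearest to the air mean in females and in males alike. In SHS females replicates 1 to 3 deviated from the air mean by -1.26 to -0.28 log2 units over these 6 probe sets, and replicate 4 from -0.51 for Scgb3a2 to 0.15 for the first Gsta3 probe set. In SHS males replicates 1 to 3 deviated by -0.82 to -0.20, and replicate 4 from -0.34 for Scgb3a2 to 0.05 for Cckar. Scgb3a2 alone among the 6 kept replicate 4 below every air array in females, whereas in males both Gsta3 probe sets did so too.

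**Figure D4:**
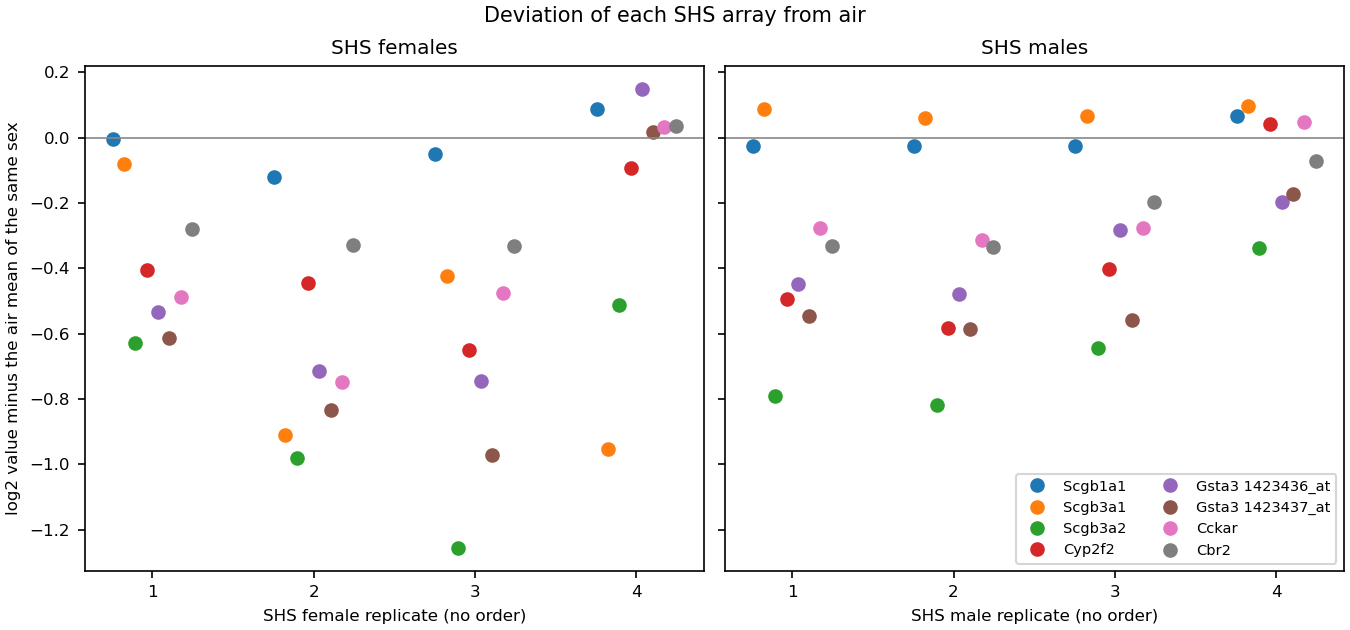
Log2 value of each SHS array minus the air mean of the same sex (y axis) for the 8 probe sets (colours), by SHS replicate (x axis, replicates have no order), in females and males. Replicate 4 lies nearest to 0 for 6 probe sets in each sex, with Scgb3a2 at -0.51 and -0.34.

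Marker levels of other cells were also extreme in replicate 4, in air groups as well as in SHS groups. The mean log2 level of 10 leukocyte markers was 9.05 to 9.27 in air females and 8.75 to 9.76 in SHS females. In males it was 8.73 to 9.08 after air and 8.61 to 9.27 after SHS. Replicate 4 was the lowest SHS array in both sexes and also the lowest air female, but the highest air male. The 8 alveolar type 1 markers had a mean level of 11.92 to 12.04 in air females and 11.77 to 12.22 in SHS females, and of 12.07 to 12.21 and 11.98 to 12.28 in males, with replicate 4 the highest array of every group. No leukocyte marker was called by limma in either sex (2 of 10 at an unadjusted p under 0.05 in each, beside 16% and 20.2% of all probe sets), though 9 of 10 lay above 0 in females, with a median of 0.22, and 6 of 10 in males, with a median of 0.08. The eosinophil peroxidase gene Epx had differences of 0.79 and 0.94 and the integrin gene Itgax of 0.66 and 0.23. Siglecf, of the same list, had -0.32 and -0.54, and Cd68 had 0.23 and -0.20. Itgax rose in the averaged effect (0.45, adjusted p = 0.0377), a call kept in 4 of 16 fits with an array left out. The part of these cells in the lower club cell values was not tested.

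Across the 16 arrays, with the mean of each sex removed, the same 6 probe sets correlated with one another at 0.772 to 0.961 over 15 pairs. Scgb3a1 correlated with them at 0.126 to 0.499 and Scgb1a1 at 0.405 to 0.643. With the mean of each group removed, which takes out the difference between SHS and air, the ranges were 0.497 to 0.917, -0.348 to 0.311 and 0.507 to 0.819. Both times the highest pair among the 6 was that of the 2 Gsta3 probe sets, which measure 1 gene. Between different genes the highest were 0.940 and 0.875 (Cyp2f2 with Cbr2). These are descriptions over 16 arrays that share their normalization, and replicates 4 weigh in all of them.

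By the same measure over 16 arrays, the genes whose pattern was most like that of Scgb3a2 were Gsta4 (r = 0.948), Ldb2 (0.943), Adh7 (0.942), Tmem163 (0.931) and Fam161a (0.926). The nearest gene was Sec14l4 for Cyp2f2 (0.960), Sec14l3 for Cbr2 (0.978), Utrn for Gsta3 (0.970), Fendrr for Cckar (0.968), Anxa8 for Scgb3a1 (0.900) and Tbc1d9b for Scgb1a1 (0.906). Next came Sec14l3 and Mettl7a1 for Cyp2f2, Sptan1 and Hpgd for Cbr2, and Myh10 and Pcolce2 for Gsta3. For Cckar they were Tmem100 and Tek (both 0.965), for Scgb3a1 Mgst2 and Tctex1d4, and for Scgb1a1 Arhgef15 and Gsn. Of 23 neighbours named in this way, 5 were named again with group means removed, so most of these likenesses changed with the choice of what was removed.

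Other genes of club and airway secretory cells were taken from a list of 20 measured genes that holds none of the members. In the averaged effect 6 of 20 fell and none rose, with a median log2 difference of -0.15 beside -0.01 for all probe sets. The lipoprotein-bound esterase gene Pon1 fell by 1.04 (adjusted p = 0.000683), the flavin monooxygenase gene Fmo2 by 0.53 (adjusted p = 0.00183) and the epoxide hydrolase gene Ephx1 by 0.46 (adjusted p = 0.000229). Chad (-0.35), the cytochrome P450 gene Cyp2s1 (-0.26) and Sec14l3 (-0.21) were the others, and Sec14l3 was called in 7 of 16 fits with an array left out. Chad, Fmo2, Ephx1 and Pon1 were called lower in females and Fmo2, Ephx1 and Pon1 in males. Of these 7 calls the 2 of Ephx1 were kept whichever array was left out, while Pon1 was called in 10 and 13 of 16 fits, Fmo2 in 9 and 4, and Chad in 7.

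No other gene of this list was called in either sex or in the averaged effect. Among the enzymes, Aldh1a1, which makes retinoic acid, had differences of -0.15 in females and -0.13 in males, and the cytochrome P450 genes Cyp2b10 and Cyp4b1 of -0.23 and -0.29 in females and -0.16 and -0.20 in males. Sult1d1, a sulfotransferase gene, had -0.68 and -0.29, so all 4 had values below 0 in both sexes. Over the whole list, 15 of 20 genes lay below 0 in females and 11 of 20 in males. Pigr had 0.22 in females and 0.55 in males (limma adjusted p = 0.0797 in males), and Cldn10 had 0.07 and 0.34. Aldh1a7 had 0.16 in females and 0.20 in males, and Aox3 had 0.37 and -0.26. Bpifa1, an antimicrobial protein gene of airway secretions, had -0.79 ± 0.64 in females and 1.37 ± 0.64 in males, neither called. Over this list, replicate 4 had the highest mean level of the SHS females (10.67), of the SHS males (10.57) and also of the air females (10.90).

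Relatives of the member enzymes and of the receptor made a list of 18 measured genes, which shares Cyp2s1 and Cyp2b10 with the list above. In the averaged effect 5 fell and none rose, with a median of -0.11. The alpha-class glutathione transferases Gsta2 and Gsta4 fell by 0.48 (adjusted p = 0.0129) and 0.23 (adjusted p = 0.00339), and Gstt1 by 0.18 (adjusted p = 0.0244, called in 11 of 16 fits with an array left out). The dicarbonyl reductase gene Dcxr fell by 0.30 (adjusted p = 0.0021) and Cyp2s1 by 0.26 (adjusted p = 0.00661). Dcxr and Gsta4 were called lower in females, in 13 and 10 of 16 such fits, and Gstt1 in males, in 7. Gstm1, a mu-class transferase gene, had -0.52 in females (adjusted p = 0.0989). Alpha-class transferases are similar in sequence, and cross-hybridization between their probe sets was not tested.

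Regulators of club cells were called only in the averaged effect. None of 18 was called by limma in females (3 at an unadjusted p under 0.05) or in males (4), shares near those of all probe sets (16% and 20.2%). In the averaged effect 3 of 18 fell, beside 3.67% of all probe sets called lower. They were the Notch ligand gene Jag1 (-0.24, adjusted p = 0.03), the Notch target gene Hey1 (-0.29, adjusted p = 0.0471) and the epithelial factor gene Grhl2 (-0.18, adjusted p = 0.0322). Their calls were kept in 8, 2 and 7 of 16 fits with an array left out. Nkx2-1, Foxa1 and Foxa2, transcription factors that act on secretoglobin genes, had differences of -0.09, -0.11 and -0.13 in females and 0.17, 0.01 and -0.02 in males. Notch3 had -0.39 in females (adjusted p = 0.165) and Elf3 0.29 in males (adjusted p = 0.0746). Marco, also counted among the 18, is a macrophage receptor that binds Scgb3a2 and not a regulator of club cells. It had 0.33 and 0.16, at a low mean over 16 arrays of 5.04.

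Markers of the neighbouring epithelial cells did not share one direction. Goblet cells, which make mucus and can arise from club cells, had 5 of 12 markers higher and 1 lower in males, led by Bpifb1 (1.16), Agr2 (0.96) and Muc5ac (0.59), with a median of 0.50 beside 0.00 for all probe sets. In females none of the 12 was called (4 at an unadjusted p under 0.05, beside 16% of all probe sets), with a median of 0.07. Gcnt3, a mucin-type glycosyltransferase gene, was the marker that fell in males (-0.65), and had -0.58 in females (adjusted p = 0.0627). In the averaged effect Agr2, Muc5ac, Foxa3, Bpifb1 and Creb3l1 rose and Gcnt3 fell, with Foxa3 and Bpifb1 called in 7 and 4 of 16 fits with an array left out. Of the 6 male calls, that of Creb3l1 was kept whichever array was left out, and the others in 9 to 14 of 16 fits.

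Of 19 ciliated cell markers, none was called by limma in females (5 at an unadjusted p under 0.05, beside 16% of all probe sets) or in males (3, beside 20.2%), with medians of -0.17 and -0.03, and Ccdc39 (-0.29) and Cdhr3 (-0.20) fell in the averaged effect, Cdhr3 in 6 of 16 fits with an array left out. Of 11 alveolar type 2 markers none was called in females (3 at an unadjusted p under 0.05), and S100g (-0.45), Etv5 (-0.41) and Abca3 (-0.23) fell in males, called in 16, 14 and 4 of 16 such fits. Of the 11, 4 fell in the averaged effect and 1 rose, with Lpcat1 at -0.32 (adjusted p = 0.00534). By the measure used for members, Sftpc (mean over 16 arrays 15.10), Sftpa1 (14.66), Cxcl15 (14.47) and Sftpd (14.29) of this list were near the ceiling. So were the alveolar type 1 marker Ager (14.44) and the goblet cell marker Clca1 (14.385). No alveolar type 1 marker of 8 was called in either sex, with 0 at an unadjusted p under 0.05 in each, and the largest difference was that of Akap5 (-0.26 in each sex). Of 8 general epithelial markers none was called in females (1 at an unadjusted p under 0.05), and Krt8 (0.32) and Cldn7 (0.30) rose in males, each called in 11 of 16 fits with an array left out. Krt8 (0.20) and Krt18 (0.14) rose in the averaged effect, called in 10 and 3 of 16 such fits. The medians of the general epithelial list were 0.02 and 0.08, beside -0.44 and -0.29 for the 8 secretoglobin and club cell probe sets.

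Of 5 basal cell markers none was called in females (0 at an unadjusted p under 0.05) and Ngfr rose in males (0.38, called in 5 of 16 fits with an array left out). Of 4 neuroendocrine markers none was called in females or males, with 0 and 1 at an unadjusted p under 0.05.

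**Figure D5:**
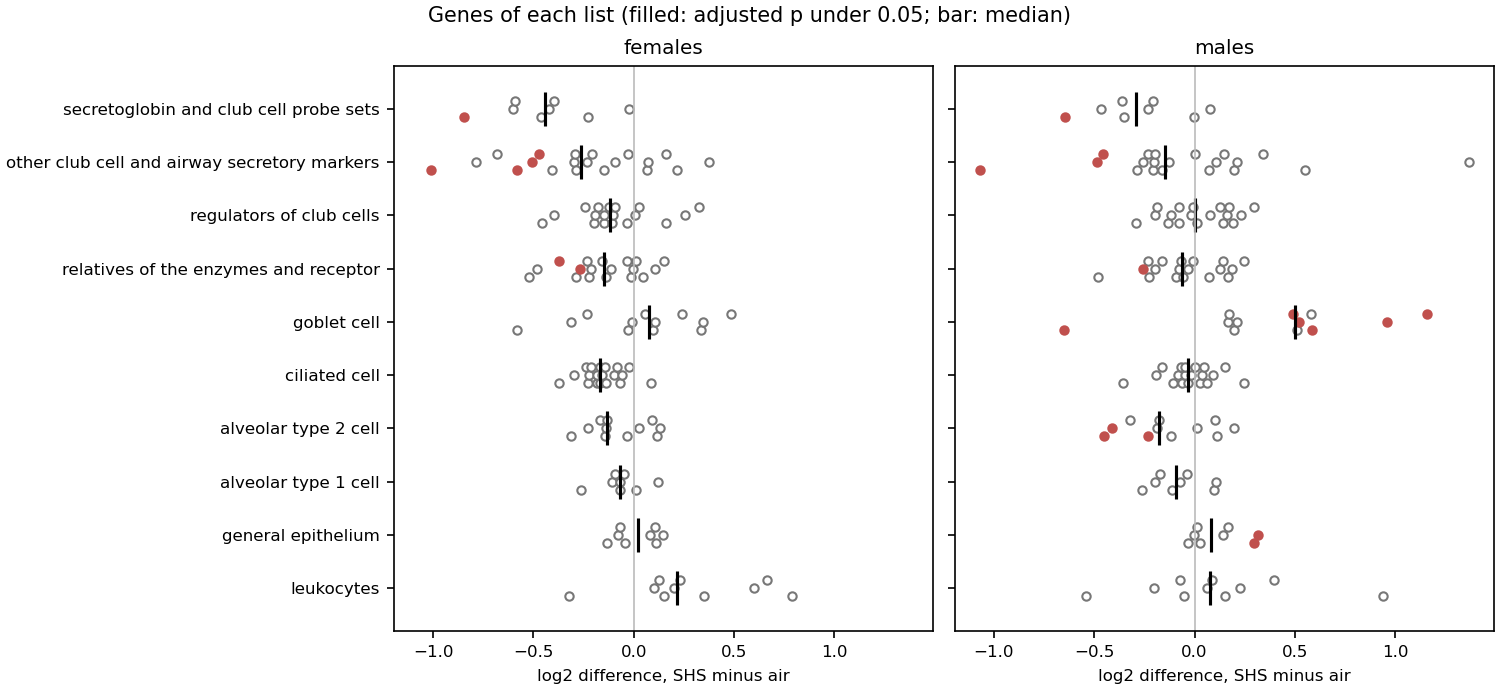
Log2 difference, SHS minus air (x axis), of each gene (points) in each list (rows) in females and in males, with the list's median (bar); filled points passed an adjusted p of 0.05. The 8 secretoglobin and club cell probe sets had medians of -0.44 and -0.29, general epithelium 0.02 and 0.08, and goblet cell markers in males 0.50.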

How the data were processed

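Total RNA of 16 left lungs was labelled with biotin and hybridized to Affymetrix arrays, per the labels. The authors deposited 1 log2 value per probe set and array, normalized between arrays (array medians 7.00 to 7.04). The summary and normalization method is not stated in those sources. Per the submitters' processing notes limma was used, for an unstated step. The log base was settled from the values, 2.58 to 15.2, the range of a 16-bit scanner. Values were used as deposited. Of 45101 features, 64 controls were left out, and 34945 of the other 45037 probe sets had exactly 1 symbol, 932 several and 9160 none.

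Group means were fitted on all 16 arrays with limma 3.58.1 in R 4.3.3 (12 residual and 5.56 prior degrees of freedom), and tested two-sided with Benjamini-Hochberg adjustment over 45037 probe sets and calls at an adjusted p under 0.05. Errors are the model's standard errors. The averaged effect is the mean of the differences within each sex. In lists, the probe set of highest mean stood for a gene. A member within 1 log2 unit of the mean highest value per array was called near the ceiling. Named from each list were its called genes and up to 3 with the largest difference, and a few others by role, chosen after their values were seen. Pattern likeness was Pearson's r among 19495 probe sets with 1 symbol and a mean above the median. The members and lists were chosen with earlier results of these data known. The fit was tested on simulated data. Plots used matplotlib 3.10.9 (Python 3.11.15). Alternatives covered normalization, a filter on low values, array weights, the prior, the replicate block, the arrays fitted and each array left out.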

Additional observations from a re-analysis of the deposited data

Results flagged for a closer look

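In 5 of 32 groups of 4 arrays, 1 value stood apart from the other 3 by more than the 95% critical value of Dixon's ratio of gap to range, where chance gives about 1 in 20 groups, a rate for independent groups, whereas these probe sets share arrays and correlate with one another. In 4 of the 5 it was the SHS array numbered 4. Cbr2 was at 14.68 in SHS female replicate 4, beside 14.31 to 14.36 in the other SHS females. In SHS male replicate 4, the second Gsta3 probe set was at 7.94, beside 7.53 to 7.57 in the other SHS males, Cckar at 9.75, beside 9.39 to 9.43, and Scgb1a1 at 15.22, beside 1 identical value of 15.13 at the top of the array range, which makes any other value stand apart. In each case replicate 4 was the highest of its group. The fifth was Scgb1a1 in air female replicate 3, at 14.91 beside 15.09 to 15.11 in the other air females.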

How the results depend on the processing

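All calls among the 8 probe sets, under every alternative run, were in the lower direction. In females, 1 probe set was called as reported, and 3 with quantile normalization, 2 after dropping low probe sets (mean under the 40th percentile), 2 with a trended robust prior, 5 at an adjusted p under 0.10, 6 with array weights and 6 without both SHS arrays numbered 4. Fitted by themselves, the 8 female arrays gave 0. In males, 1 was called as reported, 3 with the 8 male arrays alone, 4 with array weights and 6 without both SHS arrays numbered 4. In the averaged effect 6 were called as reported and 1, Scgb3a2, when at least 1.5-fold was also required. With 1 array left out in turn the count was 1 to 6 in females, 0 to 3 in males, 4 to 6 in the averaged effect and 0 for the difference between the sexes. It was 6 in females without SHS female replicate 4, 3 without SHS male replicate 4, and 2 without air female replicate 1, air male replicate 3 or SHS female replicate 1. In males it was 3 without SHS female replicate 4 and 2 without SHS male replicate 4. The cause of these changes was not tested.

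The labels do not say that a number marks a shared mother or day, and of 24 pairs of same-numbered arrays in different groups 7, not all, had deviations correlated above 0.1 (range -0.08 to 0.379), so the numbers were not used as pairs. An array matched its own number best in 21 of 48 comparisons, where 12 would be met if all candidates were alike, a hint from the data and not from the design. With the replicate block, the counts were 3 (females), 1 (males), 6 (averaged effect) and 0 (difference between the sexes), the added female calls being Cyp2f2 (adjusted p = 0.0441) and the second Gsta3 probe set (adjusted p = 0.046). The highest pair was that of the SHS arrays numbered 4. With quantile normalization, the share of lower calls among all probe sets in females was 29.4% in place of 18%. Over all probe sets, calls numbered 1294 in females, 2332 in males and 4652 in the averaged effect, and differed by over 1.5 times with array weights (3985 and 4398 in females and males, 7717 averaged), with the 8 female arrays alone (448), at an adjusted p under 0.10 (2334 and 4073), with at least 1.5-fold (366, 463 and 406) and without both SHS arrays numbered 4 (3954 in females and 7520 averaged). With 1 array left out they ran from 657 (without SHS female replicate 1) to 3604 (without SHS female replicate 4) in females and from 1073 (without SHS male replicate 3) to 3153 (without SHS female replicate 4) in males, and in the averaged effect from 3514 (without SHS male replicate 3) to 6983 (without SHS female replicate 4). Precision is limited by 4 mice in a group. Scgb1a1 and Cbr2 lay near the top of the array range, and what that did to their differences was not tested.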
